A study of Mus musculus with 8 samples.

Results

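RNA of the cadherin superfamily was followed in 8 libraries of mouse palatal shelves, the paired outgrowths that form the roof of the mouth, at embryonic day 13.5. The genes were the cadherins, the Fat and Dachsous giant cadherins, the Celsr cadherins and the delta protocadherins. They were chosen by symbol: 34 symbols were listed, 33 of them were matched to an Ensembl gene among the 19083 in the deposited table, and Dchs2 was not analysed here. Levels are FPKM (fragments per kilobase of gene, scaled to the depth of the library), which allow genes to be compared per length. The study set Pax9-/- shelves (called null, n = 4) beside controls (n = 4), of which 2 were Pax9+/+ (wild type) and 2 Pax9+/- (heterozygote). All were of strain C57BL/6. Their treatment is labelled as not applicable, although a protocol text given with them describes injection of pregnant Pax9+/- females with the compound WAY-262611. The labels do not describe the Pax9 allele or say whether a library held 1 embryo or several, and the heterozygotes among the controls carry 1 mutant copy. Because the shelves were taken whole, fewer cells of a type and less RNA per cell cannot be told apart in any value below. The genes were chosen with the null-against-control results of these data in view, so their values in that comparison are given as a description.

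Cadherins are calcium-dependent adhesion molecules whose extracellular repeats bind a partner on the neighbouring cell. Classical cadherins bind catenins inside the cell and so link the junction to actin; type I members such as E-cadherin and N-cadherin hold epithelia and mesenchyme together, and type II members often mark particular mesenchymal, vascular or neural cells. Fat4 and Dachsous 1 are very large cadherins that bind each other as receptor and ligand and orient cells within a tissue, and mutations of either human gene cause Van Maldergem syndrome, which includes craniofacial malformations. The Celsr cadherins carry the core planar polarity signal together with Frizzled and Vangl proteins. Delta protocadherins bind more weakly, do not use the catenin link of the classical cadherins, and are best known from the sorting of neurons and of embryonic mesenchyme.

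Pax9 RNA checked the labels of null against control libraries. Null libraries 1 to 4 had 8.49, 7.19, 9.81 and 10.3 FPKM, wild types 1 and 2 had 35.8 and 27.2, and heterozygotes 1 and 2 had 30.1 and 26.2. Heterozygote 1 lay between the wild types, so these values do not check the labels of heterozygote against wild type. The libraries held between 37069101 and 51210254 reads assigned to genes, recovered from the steps of the FPKM values. The first 4 columns of the table hold null 1, null 2 and both wild types, the last 4 hold null 3, null 4 and both heterozygotes, and these 2 sets of libraries separated on the first principal component of the deviations from the null and control means, which held 46.2% of their variance. The labels do not say what the column order stands for, and within the controls it cannot be told apart from wild type against heterozygote. Among cell type markers, the summed FPKM of 13 palatal mesenchyme genes was 1590 to 1750 in null and 1400 to 1690 in control libraries, so markers of the labelled tissue were abundant in every library. The summed level of 18 skeletal muscle genes spread 4.81-fold over the libraries, and that of 13 cartilage genes did not overlap between null (161 to 182) and control (206 to 234). No listed marker was at 0 in all libraries.

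The shelves expressed the superfamily at widely different levels, and a type II cadherin of mesenchyme came first. Cdh11, the cadherin typical of loose mesenchyme and osteoblast precursors, was at 163 ± 11 FPKM (SD, n = 8) and made up 29.0% of the summed FPKM of the 33 genes.
After it in level came Pcdh18, a delta-2 protocadherin, at 67.7 FPKM, the giant cadherins Fat1 at 52.2 and Dchs1 at 49.5 FPKM, and Cdh5, the VE-cadherin of endothelial junctions, at 43.3 FPKM. Fat4 followed at 30.8 FPKM, then Cdh1, the E-cadherin of epithelium, at 21.6 FPKM and Cdh2, N-cadherin, at 19.7 FPKM. Summed over libraries, the 11 type II cadherins took 40.1% of the total, the 5 Fat and Dachsous genes 24.3%, the 5 delta-2 protocadherins 16.7% and the 5 type I cadherins 12.2%.

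Neighbours in this order often did not differ beyond their spread. Fat1 ranged from 47.9 to 57.7 FPKM and Dchs1 from 42.5 to 58.4, so these ranges overlapped, as did those of Cdh1 (19.4 to 23.9) and Cdh2 (16.5 to 22.8). Celsr1 and Celsr2 had nearly the same mean, 5.81 and 5.80 FPKM. At the low end 8 genes did not reach 1 FPKM in 2 or more libraries and were not tested: Cdh7, Cdh8, Cdh12, Cdh18, Cdh20, Cdh22, Fat2 and Celsr3. Several of them, Cdh8, Cdh12 and Celsr3 included, are known mainly from neurons. Their values rested on as few as 17 reads in a library for Cdh20 and on at most 668 for Fat2. Across libraries the steadiest of the 33 genes were Fat3, with a coefficient of variation of 6.19%, Fat1 with 6.28% and Cdh1 with 6.29%. The least steady were Celsr3 with 69.2%, Cdh15, the M-cadherin of skeletal muscle, with 59.2%, and Pcdh8 with 45.6%.

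**Figure D1:**
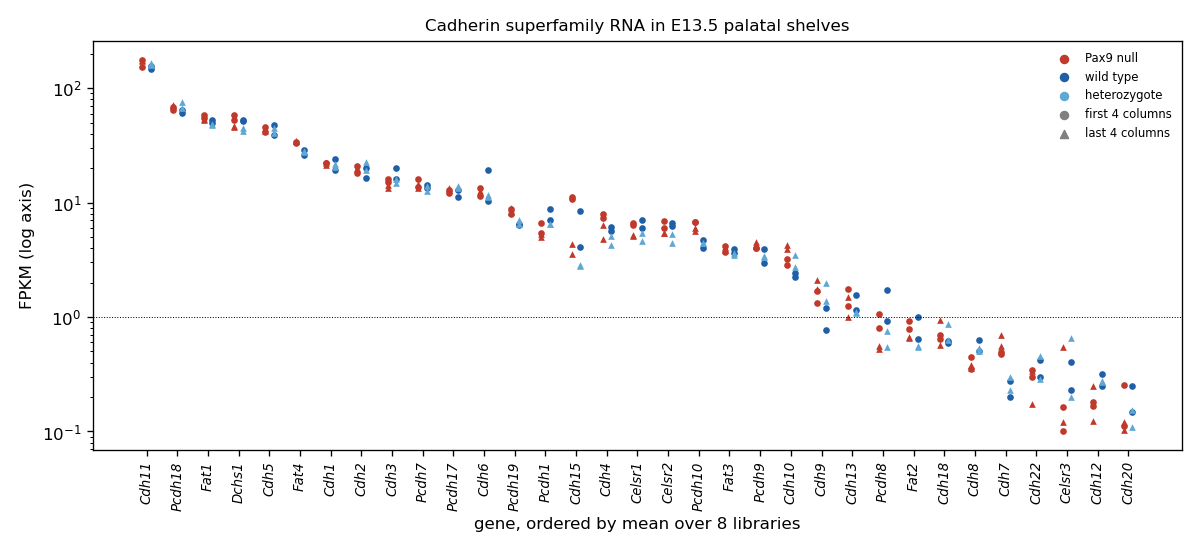
FPKM on a log axis of the 33 genes, ordered by their mean; each point is a library, coloured by genotype, with circles for the first 4 and triangles for the last 4 columns of the table, and the thin line marks 1 FPKM. Cdh11 at a mean of 163 FPKM stands above all others, and the points of Cdh15 are spread from 2.80 to 11.2 FPKM.

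In null shelves 3 members were higher than in controls and passed the test over all genes: the delta-2 protocadherins Pcdh10 and Pcdh19, and the giant cadherin Fat4. The excess in mean FPKM was 43.9% for Pcdh10, 29.1% for Pcdh19 and 22.9% for Fat4. Of the 25 members tested, 3 passed upwards, 0 passed downwards and 22 did not pass (limma, adjusted p under 0.05). Over all 13600 tested genes 57, or 0.419%, passed in either direction and 0.228% passed upwards. Since the members were picked with this comparison known, their count supports nothing further. Of the 25, 21 lay above 0 in point estimate with a median log2 change of 0.09, against 6226 of 13600 genes with a median of −0.01.

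Pcdh10, or OL-protocadherin, is a delta-2 protocadherin that binds the WAVE actin regulators and is known from axon growth in the mouse forebrain. Its level was 6.79, 6.76, 6.04 and 5.69 FPKM in null libraries 1 to 4, at 4.75 and 4.02 in wild types 1 and 2, and at 4.41 and 4.40 in heterozygotes 1 and 2. Every null library was above every control library, and wild types and heterozygotes had nearly the same mean. The log2 change was 0.48 ± 0.08 (SE; limma, adjusted p = 0.039). It was 0.58 between null 1 and 2 and the wild types, and 0.38 between null 3 and 4 and the heterozygotes.

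Fat4, the receptor of Dachsous 1, was at 33.0, 33.6, 34.6 and 34.7 FPKM in null libraries 1 to 4, at 26.0 and 29.0 in wild types 1 and 2, and at 27.6 and 28 in heterozygotes 1 and 2. The null libraries lay close together, all above the highest control. The log2 change was 0.29 ± 0.05 (SE; limma, adjusted p = 0.0422). It was 0.27 against the wild types within the first 4 columns and 0.31 against the heterozygotes within the last 4. The annotation (GENCODE M21) places 8.6% of the exon bases of Fat4 under genes on the other strand, and the kit does not mark strand; for the other members the share was at most 21.1%, for Pcdh7.

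Pcdh19, a delta-2 protocadherin on the X chromosome whose loss causes an epilepsy in humans, was at 7.99, 8.83, 8.27 and 9.03 FPKM in null libraries 1 to 4. Wild types 1 and 2 had 6.39 and 6.48 FPKM, heterozygotes 1 and 2 had 7.00 and 6.56. The groups did not overlap, and the lowest null library was above the highest heterozygote. The log2 change was 0.34 ± 0.06 (SE; limma, adjusted p = 0.0496). It was 0.36 within the first 4 columns and 0.33 within the last 4.

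These 3 calls were close to the threshold. Leaving out 1 library kept only Pcdh10 without null 4 (adjusted p = 0.038), and in each of the other 7 leave-outs 0 of the 3 passed, adjusted p reaching 0.182, while all log2 changes lay between 0.26 and 0.52. With the title number as a further term 0 of the 3 passed (adjusted p = 0.0568 for Pcdh10, 0.0584 for Fat4 and 0.0757 for Pcdh19). With the column position (first or last 4) as a further term all 3 passed, with adjusted p values of 0.0169 for Pcdh10, 0.0117 for Fat4 and 0.0179 for Pcdh19. That term raised the calls over all 13600 tested genes from 57 to 176, so lower adjusted p values were not particular to these 3. The summed cartilage markers were lower in null without overlap, and 2 of 10 tested were called lower, where 0.191% of all tested genes were. Of 13 palatal mesenchyme markers 1 was called higher and 1 lower. Without overlap 3 of them were higher in null and 1 lower, where 1.83% and 3.3% of all tested genes were. The part of either marker set in these differences was not tested.

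**Figure D2:**
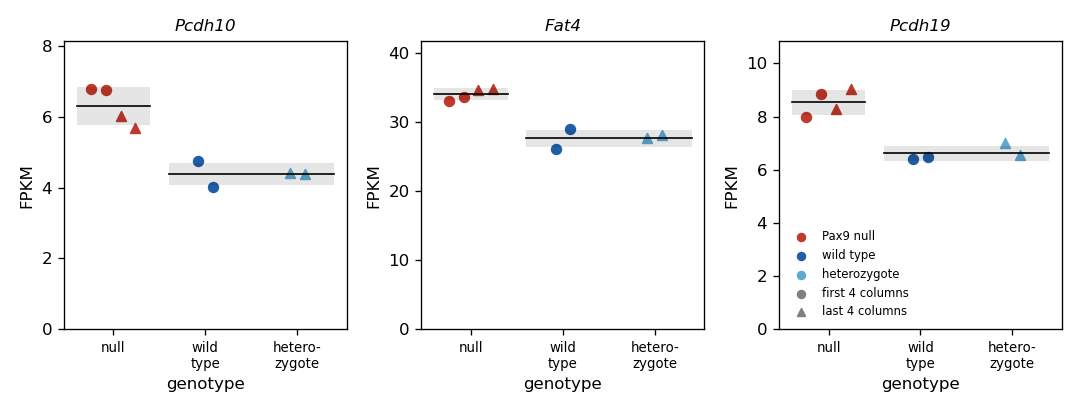
FPKM of Pcdh10, Fat4 and Pcdh19 by genotype, with a point per library, circles for the first 4 and triangles for the last 4 columns; lines are the means of the 4 null and of the 4 control libraries and the shading is 1 SD. In each panel all null points lie above all control points, with means of 6.32 against 4.39, 34 against 27.6 and 8.53 against 6.61 FPKM.

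The genes lie apart in the genome: Fat4 on chromosome 3 from 38886940 to 39011985 and Pcdh10 on chromosome 3 from 45378398 to 45435623, both on the plus strand, and Pcdh19 on chromosome X from 133582860 to 133688987 on the minus strand (mm10). Their promoters are shown because these are the members whose null and control levels separated and passed the test. Each is the RefSeq window (GRCm38.p6) of 250 bases before and 50 after the start, 5′ to 3′ on the gene's strand. Capitals mark 3 of the motifs searched on both strands, GTCACGC (the core bound by paired domains of the Pax family), CCAAT and GGGCGG (the GC box).
Fat4, chr3:38886690-38886989, plus strand: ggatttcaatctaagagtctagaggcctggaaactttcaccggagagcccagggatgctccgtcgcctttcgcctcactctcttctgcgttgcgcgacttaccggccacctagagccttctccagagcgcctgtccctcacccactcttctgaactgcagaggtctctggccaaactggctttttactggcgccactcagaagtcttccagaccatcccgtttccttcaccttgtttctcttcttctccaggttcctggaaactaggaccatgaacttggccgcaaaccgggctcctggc
Pcdh10, chr3:45378148-45378447, plus strand: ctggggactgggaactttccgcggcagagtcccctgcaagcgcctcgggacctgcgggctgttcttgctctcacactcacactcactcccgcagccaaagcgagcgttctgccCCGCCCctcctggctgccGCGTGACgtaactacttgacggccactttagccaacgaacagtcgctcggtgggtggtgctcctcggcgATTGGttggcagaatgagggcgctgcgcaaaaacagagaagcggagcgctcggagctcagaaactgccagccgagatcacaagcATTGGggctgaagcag
Pcdh19, chrX:133688944-133689243, minus strand: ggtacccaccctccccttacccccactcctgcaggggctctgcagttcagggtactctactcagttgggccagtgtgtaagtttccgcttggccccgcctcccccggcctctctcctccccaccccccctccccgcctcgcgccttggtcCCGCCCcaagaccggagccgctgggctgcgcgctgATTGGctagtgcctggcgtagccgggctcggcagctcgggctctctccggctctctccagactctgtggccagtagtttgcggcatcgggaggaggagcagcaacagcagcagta
The Pcdh10 window held 1 GTCACGC, on the reverse strand as GCGTGAC, as well as 2 CCAAT and 1 GGGCGG. The Pcdh19 window held 1 CCAAT and 1 GGGCGG, and the Fat4 window held none of the 3. Of all 32851 RefSeq windows of the same length, GTCACGC was in 2.09%, CCAAT in 37.4% and GGGCGG in 35.7%. Windows were at hand for 23 members, of which 2 held GTCACGC, the other being Pcdh9. The windows were 62.3% GC with 24 CpG for Pcdh10, 67.7% with 18 for Pcdh19 and 55.7% with 13 for Fat4, where the median of all windows was 52.7% and 7. Also searched were the TATA box as TATAAA, which 13.6% of all windows held, and the homeodomain core TAATTA, in 5.29%. The E-box CANNTG was in 72.3% and covers 2 narrower forms searched with it, namely CACCTG in 20.2% and the palindrome CACGTG in 7.15%. None of these was in the Fat4 or Pcdh10 window, and of them only the general E-box was in that of Pcdh19. A match describes these letters and shows no binding.

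Type I cadherins did not pass in the null comparison. Cdh1 was at 22, 22, 22.3 and 21.5 FPKM in null libraries 1 to 4 and at 23.9, 19.4, 21.7 and 20.3 in wild types 1 and 2 and heterozygotes 1 and 2. The null libraries lay inside the range of the controls, with a log2 change of 0.04 and a standard error of 0.07. Cdh2 had a log2 change of 0.01 ± 0.09 (SE), at 19.7 ± 1.2 FPKM in null and 19.7 ± 2.6 in control (SD, n = 4 each). Cdh3, the P-cadherin of basal epithelium and placodes, was at 14.7 ± 1.1 against 16.8 ± 2.3 FPKM, which is a log2 change of −0.18 ± 0.10 (SE). Cdh4, or R-cadherin, was at 6.62 ± 1.4 against 5.29 ± 0.78 FPKM, and its groups overlapped.

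Among type II cadherins Cdh11 was at 154, 177, 175 and 173 FPKM in null libraries 1 to 4 and at 148, 155, 160 and 166 FPKM in wild types 1 and 2 and heterozygotes 1 and 2. Without null 1 the null libraries lay above all controls, with it they overlapped, and the log2 change of 0.11 ± 0.06 (SE) did not pass. Cdh5 was at 43.6 ± 2.1 against 43.0 ± 4.1 FPKM. Cdh6, a cadherin of premigratory neural crest and kidney, was at 12.4 ± 0.81 against 13.1 ± 4.1 FPKM, the wide control spread coming from wild type 2 at 19.1 FPKM. The summed level of 9 Schwann and glial precursor markers was also highest in wild type 2, at 94.0 against 51.5 to 71.3 in the other libraries; its part in the Cdh6 value was not tested. Cdh10, a neural type II cadherin, was at 2.87, 3.19, 3.94 and 4.29 FPKM in null libraries 1 to 4 and at 2.24, 2.41, 2.75 and 3.50 in the controls in the same order as above. It had a log2 change of 0.34 ± 0.15 (SE), and heterozygote 2 lay within the null range. Cdh9 was at 1.72 ± 0.33 against 1.33 ± 0.50 FPKM. Cdh13, the T-cadherin that is held by a lipid anchor and lacks a cytoplasmic tail, was at 1.38 ± 0.32 against 1.23 ± 0.23 FPKM.

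Of the 8 untested genes, 3 had groups that did not overlap, at low read numbers. Cdh7, known from migrating neural crest in chick, was at 0.475, 0.492, 0.559 and 0.697 FPKM in null libraries 1 to 4 and 0.277, 0.199, 0.297 and 0.230 in the controls. Those values came from 65 to 246 reads per library. Cdh8 was at 0.386 ± 0.042 in null against 0.544 ± 0.063 FPKM in control, and Cdh12 at 0.181 ± 0.052 against 0.278 ± 0.028 FPKM, so these were lower in null where Cdh7 was higher. Only the fit without a filter on low values tested them: Cdh7 passed in it with a log2 change of 0.49 (limma, adjusted p = 0.0484), while Cdh8 and Cdh12 did not (adjusted p = 0.265 and 0.366). All 11 tested neuron markers also lay below 0 in null against control, with a median log2 change of −0.30, and their part in the Cdh8 and Cdh12 values was not tested. In all, 6 of the 33 members were higher and 2 lower in null without overlap, where over all 19083 listed genes 2.27% separated upwards and 3.11% downwards, 5.38% together. Among the 25 tested members 5 separated upwards and 0 downwards, where 1.83% and 3.3% of the 13600 tested genes did.

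Of the other giant cadherins, Fat1 was at 57.7, 54.3, 52.8 and 53.9 FPKM in null libraries 1 to 4 and at 49.3, 52.7, 48.9 and 47.9 in the controls. The groups separated by a narrow margin between null 3 and wild type 2. The log2 change was 0.14 ± 0.05 (SE) and did not pass. Fat3 was at 3.95 ± 0.21 against 3.67 ± 0.17 FPKM, and Dchs1, the ligand of Fat4, at 51.0 ± 5.9 against 48.0 ± 5.3 FPKM with a log2 change of 0.09. Celsr1 and Celsr2 had log2 changes of 0.02 and 0.07.

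Among the other delta protocadherins, Pcdh9 was at 3.97, 4.03, 4.48 and 4.14 FPKM in null libraries 1 to 4 and at 2.96, 3.91, 3.32 and 3.38 FPKM in the controls. Its groups did not overlap, but null 1 and wild type 2 were close together, and the log2 change of 0.26 ± 0.08 (SE) did not pass. Pcdh1 was the member furthest below 0 among those tested, at 5.59 ± 0.72 against 7.21 ± 1.1 FPKM, which is a log2 change of −0.34 ± 0.11 (SE); null 2, at 6.65 FPKM, lay above both heterozygotes. Pcdh7 was at 14.4 ± 1.2 against 13.5 ± 0.66 FPKM, with its groups overlapping. Pcdh18, known from mouse and fish paraxial mesoderm and later mesenchyme, was at 68.7 ± 3.5 against 66.8 ± 6.2 FPKM. Pcdh17 was at 12.9 FPKM in both groups, and Pcdh8, the paraxial protocadherin of somites, at 0.735 ± 0.25 against 0.983 ± 0.51 FPKM.

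**Figure D3:**
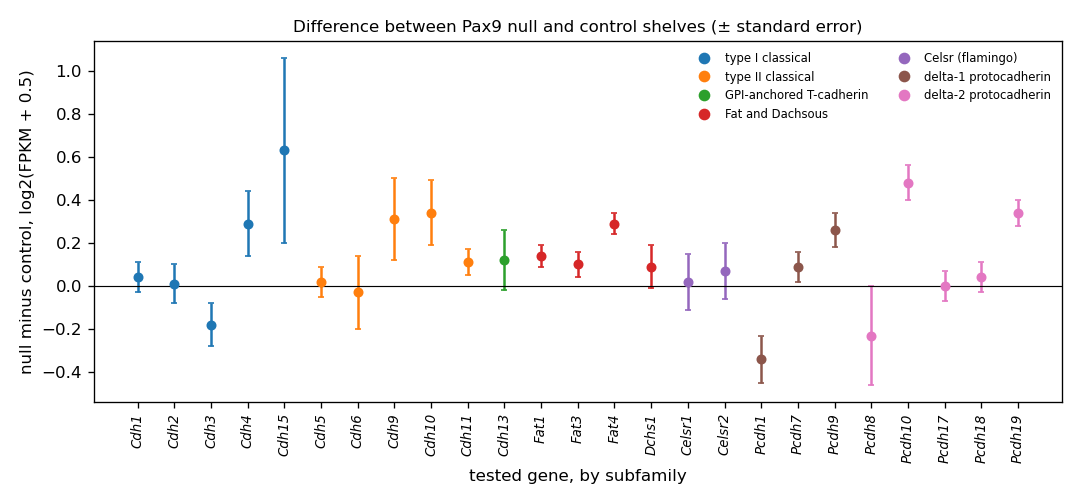
Difference between null and control on the log2(FPKM + 0.5) scale with its standard error for the 25 tested genes, grouped and coloured by subfamily. Pcdh10 at 0.48, Pcdh19 at 0.34 and Fat4 at 0.29 passed over all genes; Cdh15 at 0.63 has the widest error bar.

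Set against one control genotype at a time, in a fit with 3 groups that share the null libraries, the 3 genes had similar changes. Against the wild types alone the log2 change was 0.48 for Pcdh10, 0.30 for Fat4 and 0.38 for Pcdh19. Against the heterozygotes alone it was 0.47, 0.29 and 0.31. The fit that called these genes pools both control genotypes, so a called gene is likely to differ little between them. The similar changes follow in part from that. Each control genotype sits in one column set while the null libraries span both, so a column difference also enters these changes. In these smaller comparisons none of the members passed (limma, 0 of 25 in either).

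Heterozygotes and wild types were compared directly, a contrast that the choice of members did not use. Its spread came from all 3 genotype groups, and the null libraries span both column sets, so a column difference enters its error. For Dchs1 the SE was 0.11 here and 0.04 in the column comparison below. An absence of calls in this contrast therefore does not show that heterozygotes match wild types. None of the 25 members passed (limma), 5 had an unadjusted p under 0.05, and over all genes 0 of 13600 passed, or 0.0%, with 1568 at an unadjusted p under 0.05. By voom on the recovered reads 0 members passed as well, with 6 under 0.05 unadjusted. The 5 genes were Cdh9 at a log2 difference of 0.56, and Celsr2, Celsr1, Dchs1 and Pcdh8 at −0.38, −0.35, −0.27 and −0.63. The same genes differed between null libraries, all of 1 genotype, by column position: null 3 and 4 less null 1 and 2 gave 0.28 for Cdh9, −0.24 for Celsr2, −0.31 for Celsr1, −0.26 for Dchs1 and −0.45 for Pcdh8. With that difference subtracted, 0 of 25 members passed and 0 had an unadjusted p under 0.05, against 0 and 128 of all 13600 genes (limma, 0.0% called; by voom 0 and 63 genes). The remainder for Dchs1 was −0.01 ± 0.08 (SE) and for Celsr1 −0.04 ± 0.14 (SE). For Celsr2 it was −0.13 ± 0.15, for Pcdh8 −0.18 ± 0.33 and for Cdh9 0.28 ± 0.28 (SE). This contrast sets pairs of libraries against each other, and few genes of any kind reached an unadjusted p under 0.05 in it. An absence of calls here likewise does not show that heterozygotes match wild types.

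Column position was compared next, with null or control as the other term, a comparison added after the data were seen. Within the controls it is also heterozygote against wild type, so the calls below cannot be given to column position alone. It called 5526 of 13600 genes, or 40.6% (limma, adjusted p under 0.05). Of the 25 members 11 were called, 3 higher and 8 lower in the last 4 columns, where 19.4% and 21.3% of all genes were higher and lower. The polarity cadherins were among them. Dchs1 was at 58.4, 53.1, 52.1 and 53.0 FPKM in null 1, null 2 and the wild types and at 45.6, 47.0, 44.5 and 42.5 FPKM in null 3, null 4 and the heterozygotes. The sets did not overlap, which 33.9% of all tested genes also showed, and the log2 difference was −0.27 ± 0.04 (SE; limma, adjusted p = 0.00264).

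Celsr1, at 6.53 ± 0.45 against 5.09 ± 0.36 FPKM (SD, n = 4 each), and Celsr2, at 6.47 ± 0.41 against 5.13 ± 0.49 FPKM, were lower in the last 4 columns without overlap (limma, adjusted p = 0.00705 and 0.012). Cdh4 was at 6.79 ± 1.1 against 5.12 ± 0.86 FPKM, and Cdh10 went the other way, from 2.68 ± 0.43 to 3.62 ± 0.66 FPKM (adjusted p = 0.013 and 0.00822). Cdh15 had the largest difference of the members, 8.63 ± 3.3 against 3.39 ± 0.71 FPKM and a log2 difference of −1.16 ± 0.19 (SE). Dchs1, Celsr1, Celsr2, Cdh4, Cdh10 and Cdh15 were called in each of the 8 leave-outs. The other 5, Cdh3, Cdh9, Pcdh1, Pcdh8 and Pcdh18, had adjusted p values between 0.0261 and 0.0499 and were called in 1 to 4 of the 8. The 3 genes called in the null comparison were not among the 11: Pcdh10 differed by −0.09, Fat4 by 0.04 and Pcdh19 by 0.05 between the column sets. The null comparison had no column term, so a column difference widened its error and made a call there less likely. Small column differences of its called genes follow in part from that and are not read as a trait of these genes.

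**Figure D4:**
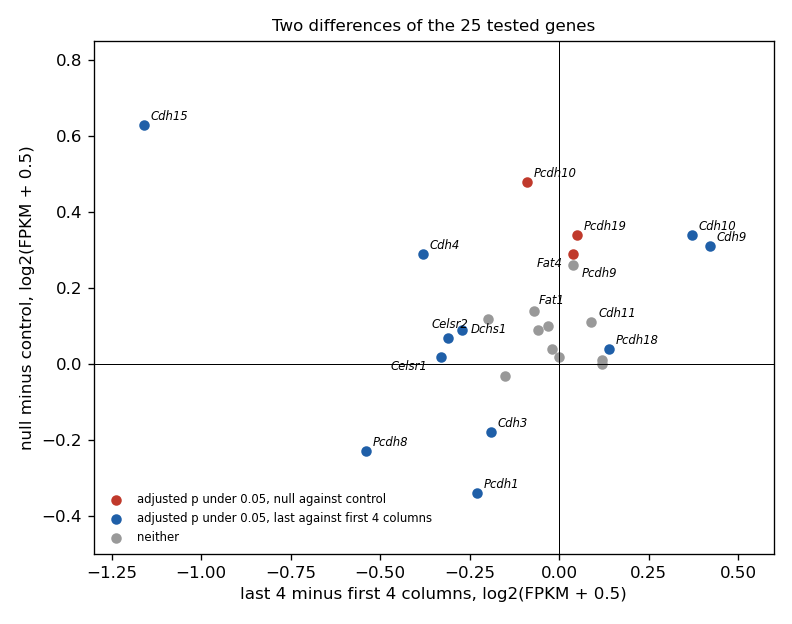
The 25 tested genes by their difference between the last and first 4 columns (horizontal) and between null and control (vertical), both on the log2(FPKM + 0.5) scale; red points passed in the null comparison, blue points in the column comparison, and grey points, mostly unlabelled, in neither. Red points sit near 0 on the horizontal axis, a position that the null comparison, fitted without a column term, favours. Cdh15 lies far to the left at −1.16.

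The number 56 or 44 in each sample title, whose meaning the labels do not give, was also tested with null or control as the other term. Of the 25 members 0 passed (limma), and over all genes 5, or 0.0368%, passed (0.00735% higher and 0.0294% lower in 56). Voom also called 0 members. By limma 3 members had an unadjusted p under 0.05, as did 842 of all 13600 genes. The 3 were Cdh5, Cdh2 and Pcdh7, at log2 differences of −0.17, −0.18 and −0.14 for 56 less 44. This fit had no column term, so the column difference entered its error. Few calls in it therefore do not show that the title number has little effect.

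Some members are textbook markers of cell types other than mesenchyme, and their levels were set beside other markers of those types over the 8 libraries. Cdh15 followed 18 skeletal muscle markers almost exactly. It was at 10.7 and 11.2 FPKM in null 1 and 2, 8.48 in wild type 2, 4.31 in null 3, 4.06 in wild type 1, 3.58 in null 4 and 2.87 and 2.80 in heterozygotes 2 and 1. The muscle markers summed to 453 and 472 FPKM in null 1 and 2, 311 in wild type 2, 196 in null 3, 148 in wild type 1, 112 in null 4 and 102 and 98.3 in heterozygotes 2 and 1. On the log2 scale Pearson's r was 0.99 (exact permutation p = 2.48e-05, the smallest that 8 libraries can give, adjusted over 4 such relations 9.92e-05) and Spearman's rho was 1.0 (exact permutation p = 4.96e-05, adjusted 0.000198). Without null 1 and 2, which lay farthest out, r was 0.96 (exact permutation p = 0.00139, n = 6). With each column set centred on its own mean r was 0.969.

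Of the defining muscle regulators, Myod1 ranged from 4.57 to 20.3 FPKM, Myog from 9.94 to 46.5 and Pax7, which marks the precursors, from 0.514 to 2.00. Each was highest in null 1 and 2 and lowest in the heterozygotes. In the null comparison all 17 tested muscle markers lay above 0 with a median log2 change of 0.76, and 0 passed, with 1 at an unadjusted p under 0.05 (limma). By column position all 17 lay below 0 in the last 4 columns and 16 were called lower, where 21.3% of all genes were. Cdh15 itself was at 7.47 ± 4.1 FPKM in null and 4.55 ± 2.7 in control, with overlapping groups and a standard error of 0.43 on its log2 change of 0.63.

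Cdh1 and Cdh3 were set beside 18 epithelial markers, among them Epcam (27.6 to 36.3 FPKM) and the basal regulator Trp63 (8.59 to 12.2 FPKM). The epithelial sum was 259 to 318 in null and 258 to 370 in control libraries. For Cdh1 r was 0.78 (exact permutation p = 0.025, adjusted 0.025) and rho 0.76 (exact permutation p = 0.0368, adjusted 0.049). For Cdh3 r was 0.85 (exact permutation p = 0.0115, adjusted 0.0153) and rho 0.60 (exact permutation p = 0.132, adjusted 0.132). Both relations rested on wild type 1, which had the highest sum. Without it alone r was 0.562 for Cdh1 and 0.555 for Cdh3 (exact permutation, adjusted p = 0.195 for each, n = 7). Without heterozygote 2 alone, the lowest in sum, r was 0.737 for Cdh1 (exact permutation, adjusted p = 0.0756) and 0.869 for Cdh3 (exact permutation, adjusted p = 0.0238). With both of these libraries left out r was 0.45 for Cdh1 (exact permutation p = 0.381, n = 6) and 0.58 for Cdh3 (exact permutation p = 0.224, n = 6). Cdh5 and 13 endothelial markers, whose sum was 143 to 154 in null and 133 to 159 in control libraries, gave r = 0.84 (exact permutation p = 0.0115, adjusted 0.0153) and rho = 0.83 (exact permutation p = 0.0154, adjusted 0.0308). Without wild type 1 and heterozygote 1 that r was 0.59 (exact permutation p = 0.218, n = 6). It was 0.757 without wild type 1 alone (exact permutation, adjusted p = 0.101) and 0.763 without wild type 2 alone (exact permutation, adjusted p = 0.0522). With 4 libraries each, the column sets hold too few samples for a relation of their own. With each set centred on its mean r was 0.91 for Cdh1, 0.762 for Cdh3 and 0.894 for Cdh5. With null and control each centred on its mean it was 0.832, 0.986 and 0.877 in the same order, wild type 1 included.

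**Figure D5:**
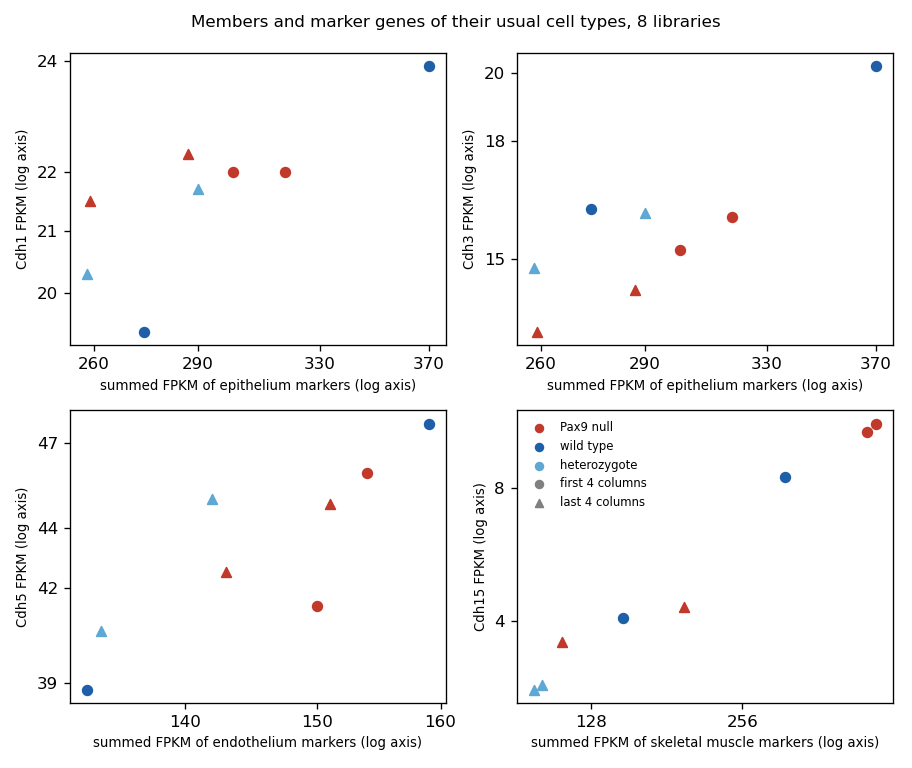
FPKM of Cdh1, Cdh3, Cdh5 and Cdh15 against the summed FPKM of the markers of epithelium, endothelium and skeletal muscle, both on log axes, with a point per library. The Cdh15 points follow the muscle sum in rank without exception; in the other panels wild type 1 lies at an end of the marker axis, highest for epithelium and lowest for endothelium.

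Genes that work with the cadherins were described from lists, by the null comparison. Of 16 tested catenins and junction linkers 0 passed (limma) with 2 at an unadjusted p under 0.05, and the median log2 change was −0.05. The most abundant, Ctnnb1, which encodes beta-catenin, was at 369 ± 6.14 against 377 ± 12.5 FPKM, and the furthest from 0 was Ctnna2, neural alpha-catenin, at 2.01 ± 0.594 against 2.57 ± 0.41 FPKM. Among 20 genes of Fat and Dachsous signalling and the Hippo pathway 0 passed and 0 had an unadjusted p under 0.05, with a median of 0.02. There the most abundant was the transcription factor Tead2, at 109 ± 7.24 against 108 ± 7.59 FPKM, and Lix1 was furthest from 0 at a log2 change of −0.23.

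Of 14 planar polarity partners of the Celsr cadherins 0 passed in the null comparison, with 2 at an unadjusted p under 0.05 and a median of 0.01. In that list Ror2, a Wnt5a receptor, was furthest from 0 at 19.9 ± 2.78 against 24.3 ± 2.94 FPKM (limma, adjusted p = 0.6). By column position 8 of the 14 were called, 7 of them lower in the last 4 columns, where 40.6% of all tested genes were called and 21.3% were lower. The most abundant, the receptor-like Ptk7, had a log2 difference of −0.32 between the column sets (limma, adjusted p = 0.00271) and one of −0.01 between null and control.

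The WAVE actin regulators that delta protocadherins bind had 0 of 9 passing, with a median of −0.03. Brk1 was the most abundant at 94.9 ± 1.87 against 99.8 ± 2.52 FPKM, and Cyfip2 was at a log2 change of −0.17. Among repressors of E-cadherin 0 of 8 passed: Twist1 was the most abundant at 138 ± 11.2 against 130 ± 19.9 FPKM and Snai1 was furthest from 0 at −0.18. Proteases that shed cadherins had 0 of 6 passing, with Adam10 at 39.9 ± 4.02 against 39.5 ± 4.89 FPKM. In each of these 3 lists 0 genes had an unadjusted p under 0.05.

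Outside the 34 were the clustered protocadherins, which give neurons their individual surface identity. Of 58 listed, 23 were found by symbol and 16 were tested. Of these 16, 15 lay above 0 with a median of 0.13 and 0 passed. The most abundant was Pcdhgc4 at 25.8 ± 1.15 against 25.9 ± 1.78 FPKM, and Pcdhb16 was furthest from 0 at 1.16 ± 0.0839 against 0.933 ± 0.128 FPKM (limma, adjusted p = 0.716). Members of this cluster share sequence, so their reads can have been split between genes. Of 3 tested desmosomal cadherins 0 passed, with Dsc2 at 4.41 FPKM in both groups and Dsc3 at 2.96 ± 0.283 against 3.61 ± 0.63 FPKM. Of 2 other tested classical-like cadherins 0 passed, Cdh24 at 24.3 ± 4.12 against 23.7 ± 2.98 FPKM and Cdh19, a Schwann precursor cadherin, at 2.88 ± 0.595 against 2.67 ± 0.74 FPKM. Pcdh12, of endothelium, and Pcdh11x were at log2 changes of 0.04 and 0.33 and did not pass.

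Calsyntenins and cadherin-related receptors had 0 of 5 passing and 3 with an unadjusted p under 0.05, which 972 of all 13600 genes also had. Ret, a receptor tyrosine kinase with cadherin-like repeats that enteric and sensory neurons use, was at 0.48, 0.399, 1.22 and 0.139 FPKM in null libraries 1 to 4 and at 1.77, 2.46, 2.05 and 1.2 FPKM in the controls. Null 3 lay just above heterozygote 2, so the groups overlapped, and the log2 change of −1.23 ± 0.29 (SE) did not pass (limma, adjusted p = 0.161). The neuron markers, described above beside Cdh8, had a summed level of 49.3 to 149 FPKM in null and 59.3 to 158 in control libraries, and their part in the Ret value was not tested. Clstn1, the most abundant calsyntenin, was at 53.4 ± 3.54 against 55.2 ± 4.0 FPKM.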

How the data were processed

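RNA selected with oligo(dT) from 8 samples of micro-dissected palatal shelves was sequenced, per the labels' protocols, and the authors deposited a table of FPKM values, 1 column per sample. Per the submitters' processing notes, Novoalign 2.08.03, build mm10 and DESeq2 were used; no source used here names the counting program, annotation or filters. The worth of 1 read in each library was taken from the commonest ratios between libraries among low genes; with it the values of all 19083 genes became read numbers that were whole to within 0.03, which gave the depth, and columns of other samples numbered 0. Ensembl identifiers were matched to symbols with GENCODE M21 (18752 matched, 331 not).

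The 13600 genes that reached 1 FPKM in 2 or more libraries were fitted on the log2(FPKM + 0.5) scale; the tool was limma 3.58.1 (R 4.3.3; empirical Bayes with a mean-variance trend, two-sided). Adjustment was by Benjamini and Hochberg across the 13600, and a call is an adjusted p under 0.05. Fold changes on this scale understate those of low genes. Fits were checked on simulated data. Its noise was independent between libraries, so the check does not cover the column difference seen in these data. Relations over libraries used exact two-sided permutation tests. Summaries and plots used Python 3.11.15 and pandas 2.3.3.

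Named genes are all members and, of each list, its called genes, its most abundant tested gene and the one furthest from 0; 1 gene that this rule names is not reported here. The members and lists were chosen with earlier results of these data known. Nothing in the labels says that samples came from separate embryos or litters, so the spread behind each p-value may be partly technical. Alternatives were other pseudocounts and filters, voom (with trimmed-mean scaling) on the recovered reads, median centring, blocks, subsets and leaving out each library.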

Additional observations from a re-analysis of the deposited data

Results flagged for a closer look

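In 66 groups of 4 libraries (33 genes, null and control), 6 held a library far from the other 3 by Dixon's test on the gap; chance flags about 1 group in 20. Cdh6 was highest in wild type 2, at 19.1 FPKM against 10.3 to 11.6 in the other controls, and Cdh13 was highest in the same library, at 1.56 against 1.09 to 1.15 FPKM. Cdh11 was lowest in null 1, at 154 against 173 to 177 FPKM in the other null libraries. Cdh20 was highest in null 1, at 0.255 against 0.102 to 0.121 FPKM. Cdh18 was highest among controls in heterozygote 1, at 0.871 against 0.587 to 0.633 FPKM, and Celsr3 was highest among null libraries in null 3, at 0.552 against 0.101 to 0.162 FPKM.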

How the results depend on the processing

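For null against control, the count of 57 genes became 176 with column position as a block, 11 against heterozygotes alone, 2 and 3 for null 1 and 2 against the wild types and null 3 and 4 against the heterozygotes alone, 0 and 4 within title numbers 44 and 56 alone, and 16 to 52 when 1 library was left out. The 3 called members became 0 to 1 in the leave-outs, 0 in all 4 of those subsets, 0 against either control genotype, and 0 with the replicate block by title number (47 genes called), where adjusted p values were 0.0568 for Pcdh10, 0.0584 for Fat4 and 0.0757 for Pcdh19. Whether the numbers pair the samples is not settled by their deviations: within a column set, null and control libraries of the same number correlated at 0.17 to 0.57 and those of different numbers at 0.131 to 0.411, and across the sets those of the same number at −0.476 to −0.16. Fewer samples were fitted in the leave-outs and subsets; for the other changes the cause was not tested. Over the other settings with all 8 libraries, Fat4 passed in each, Pcdh10 missed without a filter on low values (adjusted p = 0.0538), where Cdh7 passed, and Pcdh19 missed in 4, at 0.0506 to 0.0659. All 3 stayed above 0 in every setting, which follows from every null value of these genes lying above every control value. Heterozygote against wild type called 0 to 1 genes in the leave-outs. Title number called 5 genes, 3 without a filter, 2 by voom and 1 to 3 in the leave-outs. Column position called 11 members, 7 without a filter and 6 to 10 in the leave-outs. In the leave-outs r was 0.562 to 0.89 for Cdh1, 0.555 to 0.906 for Cdh3, 0.757 to 0.935 for Cdh5 and 0.982 to 0.997 for Cdh15.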
